A study of Rattus norvegicus with 39 samples.

Results

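Cerebral cortex of male BN rats fed ad libitum (AL) was compared between 6 and 12 months of age, an interval that lies within young and middle adulthood. The samples were chosen by their labels alone, all libraries labelled 6 month AL (pools 1, 2 and 3, written 6 m AL) and all labelled 12 month AL (pools 4, 5 and 6, written 12 m AL), which makes 6 of the 39 libraries of the series. Each library was RNA of 2 rats of the BN/SsNOlaHSD substrain mixed before ribosomal RNA was depleted. All rats ate the CRM diet, without lipoic acid, and were housed alone from 2 months of age. The other 33 libraries belong to 11 groups of other ages and diets, among them caloric restriction (CR), ad libitum food that held α-lipoic acid (AL+LA) and switches of diet at a later age (written with ">"), and are used here to set the CPM scale and the filter on low counts, to place the levels found and, for 6 m CR and 12 m CR, to set the same interval beside that under AL. A pool of 2 rats averages over animals, so the spread between pools is smaller than that between rats would be, and the labels do not say whether any rats shared a litter.

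Reads counted on genes numbered 2841883 to 4084231 in the 6 m AL pools. In 12 m AL they numbered 3813173 in pool 4 and 2366549 in pool 6 but only 494091 in pool 5, where 3144 of the 17230 genes tested had no read, against 581 to 1113 in the other 5 libraries. One read in pool 5 is worth 2.03 CPM (read count per 10 to the power 6 reads on genes, scaled by TMM over all 39 libraries), and every count of DE genes is given with and without this pool. Pools of the same age differed by more than sampling noise (chi-square per degree of freedom 3.24 to 18.3 over 6 pairs), and no library copied another. Transcripts of cortical projection neurons were present in all pools, with Neurod6 at 23.2 to 60.9 CPM and Nrgn (neurogranin, a postsynaptic protein) at 83.4 to 199 CPM. Levels are in bulk tissue, where more cells of a type and more RNA per cell cannot be told apart.

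MHC class II molecules carry peptides from engulfed protein to the cell surface, where helper T cells read them. Each is a pair of an alpha and a beta chain, and in the rat the D pair is encoded by RT1-Da and RT1-Db1 and the B pair by RT1-Ba and RT1-Bb. Cd74 encodes the invariant chain, which holds the groove closed until the molecule reaches the endosome. In brain these genes are known mainly from microglia and from macrophages at vessels and meninges.

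Of the 17230 genes tested, 17 (0.0987%) were differentially expressed (DE, Benjamini-Hochberg adjusted p under 0.05 over all genes, edgeR quasi-likelihood test). Of these, 9 (0.0522% of the genes tested) were higher at 12 months, and these were the 5 MHC class II genes RT1-Db1, RT1-Da, RT1-Bb, RT1-Ba and Cd74, the complement gene C3, Uqcrc1, Npc2 and a protein-coding gene without a symbol. A further 8 (0.0464%) were lower, namely both annotated copies of Hspa1b, rno-mir-1843, a miRNA locus without a name and 4 mitochondrial tRNA loci. In all 17 genes no pool of one age lay within the range of the other age, which was also so for 750 genes (4.35%) in the upward and 919 (5.33%) in the downward direction among all genes tested.

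**Figure D1:**
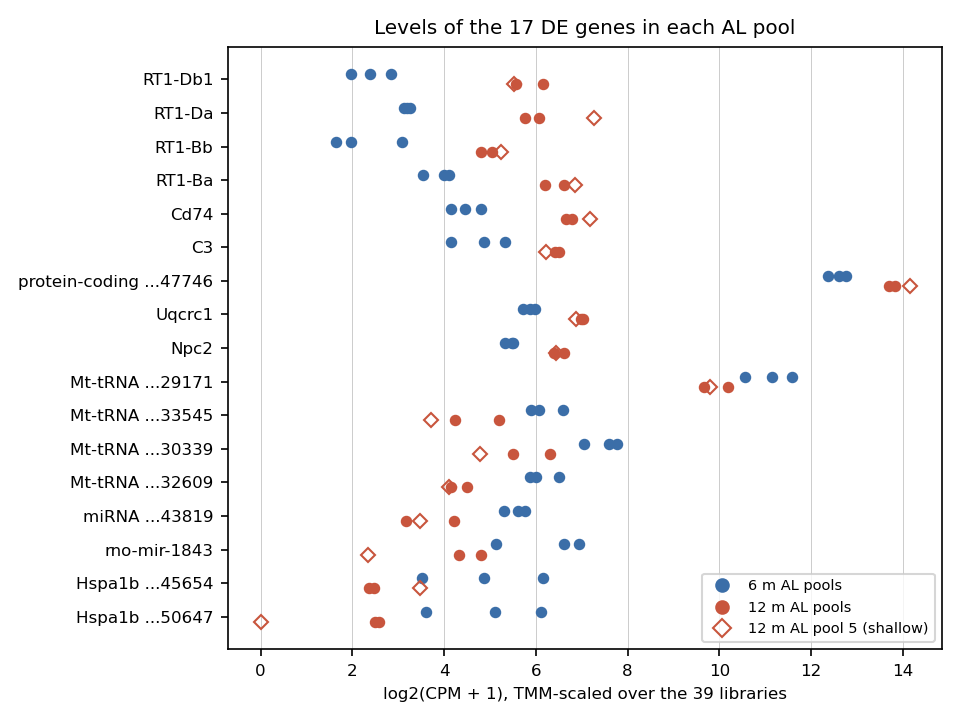
Levels of the 17 DE genes in the 3 pools of 6 m AL (blue) and the 3 of 12 m AL (red), as log2(CPM + 1) on the horizontal axis, with the shallow pool 5 as an open diamond and the last digits of the identifier for loci without a name or with a shared symbol. The 2 ages are apart in every gene, widest in the MHC class II genes at the top and narrowest in the Hspa1b copy ENSRNOG00000045654, where pool 5 nearly meets pool 1.

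The class II genes held the largest increases. RT1-Db1, the beta chain of the D pair, was at 4.26, 6.12 and 2.92 CPM in pools 1 to 3 and at 46.3, 44.7 and 70.4 CPM in pools 4 to 6. Every 12-month pool was several times higher than every 6-month pool, and the log2 FC was 3.64 ± 0.33 (SE, n = 3 and 3; 12.5-fold; edgeR adjusted p = 2.14e-06). RT1-Da, its alpha chain, was nearly the same in the 6 m AL pools, 8.52, 8.16 and 7.69 CPM, and stood at 53.8, 153 and 65.9 CPM at 12 months. The highest value was that of pool 5, where it rested on 75 reads, and the log2 FC was 3.37 ± 0.34 with all pools and 2.87 ± 0.27 without pool 5 (edgeR adjusted p = 3.67e-06 and 0.000225).

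RT1-Ba, the alpha chain of the B pair, was at 14.9, 16.3 and 10.6 CPM at 6 months and at 73.0, 114 and 96.7 CPM at 12 months, a log2 FC of 2.73 ± 0.26. RT1-Bb, its beta chain, was the lowest of the 5, at 2.13, 7.48 and 2.92 CPM and then 26.9, 36.6 and 32.1 CPM, with a log2 FC of 2.95 ± 0.41. It rested on 9 to 22 reads in each 6 m AL library. Cd74 was at 20.8, 26.9 and 16.7 CPM at 6 months and at 101, 144 and 110 CPM at 12 months, a log2 FC of 2.44 ± 0.24 (5.43-fold). For these 3 genes the edgeR adjusted p was 2.52e-06, 0.000696 and 3.13e-06.

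Of the 13 symbols listed for class II presentation, 6 could be matched to a tested gene, and the 5 above were DE. The sixth, Ctss, the protease that trims the invariant chain, was at 133 to 154 CPM and then 151 to 184 CPM, with overlapping pools (log2 FC 0.26 ± 0.19, edgeR adjusted p = 0.9995). The median log2 FC of the 6 was 2.84, beside −0.02 over all genes tested. A symbol can be given only where the study listed the gene as changed in some comparison of these same libraries, so the matched members are not an independent sample of the pathway.

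Class II genes are known for promoters in which an X box is followed by a Y box with the CCAAT letters in reverse. The letters searched for both boxes were found before RT1-Da, RT1-Db1 and RT1-Bb. RT1-Ba had those of the Y box and of a cyclic AMP response element but not of the X box core, and Cd74 held none of these and only CCAAT on the forward strand. The stretches below are shown because these genes moved together. They come from RefSeq (GRCr8, matched by symbol, a later build than that of the counts) and run 5′ to 3′ on the gene's strand. Capitals mark ACNGATG (X box core), TGACGTCA (a cyclic AMP response element) or CTGATTGG (Y box), and in Cd74 the letters CCAAT. RT1-Da lies at chr20:4515324-4515382 (plus strand), RT1-Db1 at chr20:4560226-4560283 (minus), RT1-Ba at chr20:4576976-4577030 (plus), RT1-Bb at chr20:4604163-4604220 (minus) and Cd74 at chr18:56527005-56527033 (plus).
RT1-Da: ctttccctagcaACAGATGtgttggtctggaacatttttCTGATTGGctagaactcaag
RT1-Db1: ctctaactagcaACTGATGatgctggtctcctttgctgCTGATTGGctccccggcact
RT1-Ba: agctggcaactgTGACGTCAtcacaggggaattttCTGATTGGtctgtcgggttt
RT1-Bb: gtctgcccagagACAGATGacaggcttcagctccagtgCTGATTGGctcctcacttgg
Cd74: ggccctggccagCCAATgggatcatgcag

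CTGATTGG began 52, 83, 46 and 64 bases before the annotated start of RT1-Da, RT1-Db1, RT1-Ba and RT1-Bb. Searched on both strands, these letters were in 3.5% of 33469 promoter windows of the same 300-base length, ACNGATG in 10.2%, TGACGTCA in 1.83% and CCAAT, whose reverse overlaps CTGATTGG, in 37.5%. The X box core and the Y box were both present in 97 windows (0.29%). The letters were chosen with these promoters in view, and a match describes the sequence only.

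Set beside the other groups of the series, 12 m AL had the highest median of all 13 groups for each of the 5 class II genes. For Cd74 the 12 m AL pools (101 to 144 CPM) overlapped only 28 m CR>AL+LA (80.9 to 112 CPM) and 28 m AL+LA (76.7 to 102 CPM). The 28 m AL pools, the same diet at a later age, were at 20.6 to 46.7 CPM and overlapped the 6 m AL pools. The 12 m CR pools, of the same age on restricted food, were at 16 to 29.6 CPM. The 12 m AL+LA pools were wide apart, with a lowest value of 12.3 and a highest of 89.1 CPM. The medians of all 5 genes followed the same order over the AL ages, low at 6, high at 12 and lower again at 28 months, and the 12 m AL and 28 m AL pools did not overlap in any of them. These levels are a description and were not tested here.

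**Figure D2:**
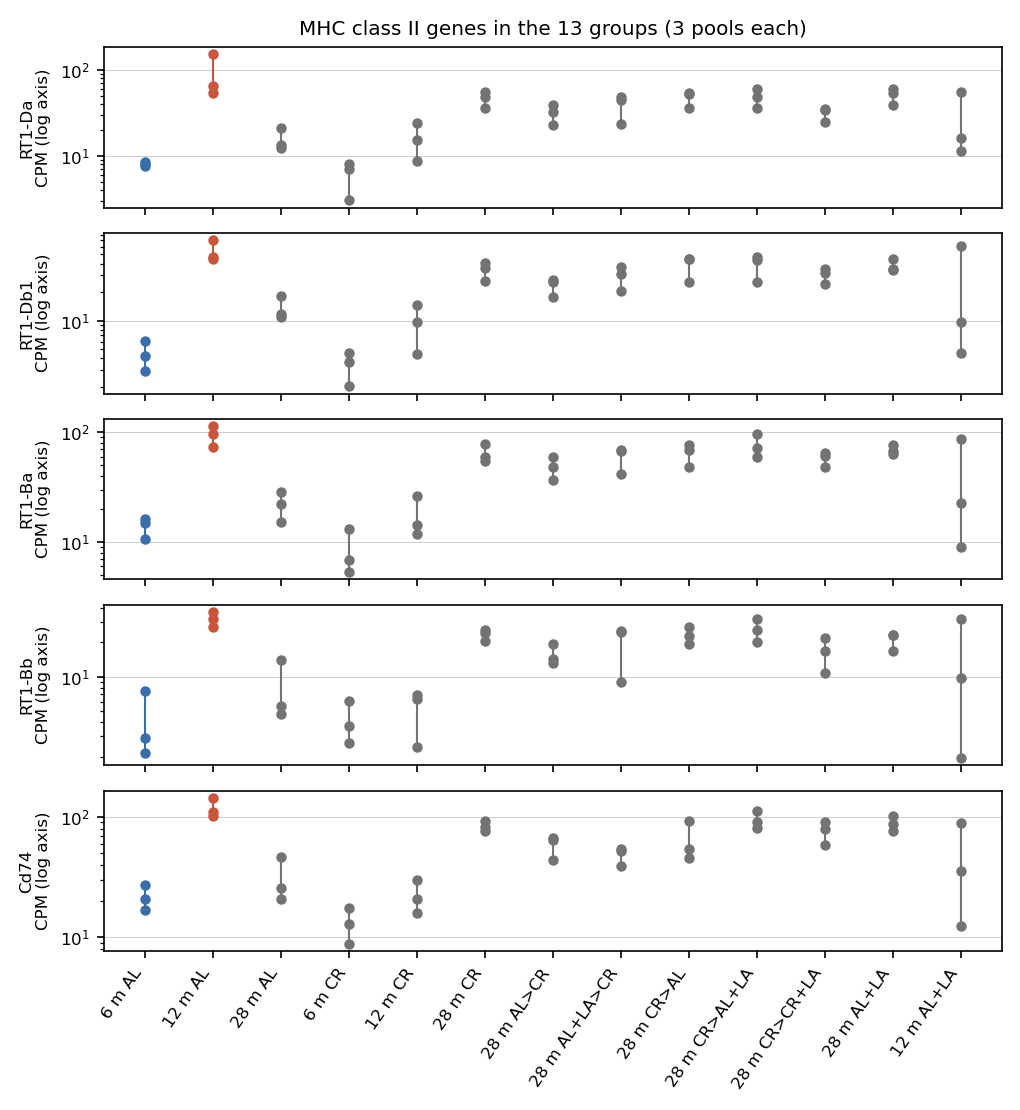
CPM (log axis) of the 5 MHC class II genes in the 13 groups, with the 3 pools of each group as points joined by a line, 6 m AL in blue, 12 m AL in red and the others in grey. In each panel 12 m AL has the highest median and 28 m AL lies between it and 6 m AL. The 12 m AL+LA pools span most of the plotted range in every panel but that of RT1-Da.

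One ribosomal RNA transcript that survived depletion was higher at 12 months as well but was not DE. Rn28s was at 10318, 16404 and 14414 CPM at 6 months and at 29607, 26514 and 17307 CPM at 12 months (log2 FC 0.84 ± 0.22, edgeR adjusted p = 0.372), also without overlap. The group medians of Rn28s and RT1-Db1 were both low in 12 m CR (3120 and 9.77 CPM) and in 28 m AL (5600 and 11.8 CPM). Both were high in 28 m CR (31300 and 35.9 CPM). In the 12 m AL+LA pools, by contrast, Rn28s was at 21600 to 35600 CPM while RT1-Db1 ranged from 4.52 to 60.6 CPM. The median of Rn28s was higher in 6 m AL (14400 CPM) than in 28 m AL, and that of RT1-Db1 was lower (4.26 CPM). Among the 12 m AL pools Rn28s was lowest in pool 6, where RT1-Db1 was highest (70.4 CPM). Without Rn28s and the mitochondrial tRNA loci in the fit the 5 class II genes were still DE, among 12 DE genes in all. That fit kept other loci of nearly the same level as Rn28s. Leaving rows out also cannot show what residual ribosomal RNA did to the remaining genes. The part of residual ribosomal RNA in the result was not tested.

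C3, the central component of complement, was at 28.2, 39.5 and 16.7 CPM in the 6 m AL pools and at 83.9, 73.2 and 89.2 CPM in the 12 m AL pools (log2 FC 1.57 ± 0.27, 2.98-fold, edgeR adjusted p = 0.00779). The 6-month pools were spread more widely than the 12-month pools, and the gap between them was still wide. It was the one DE gene of 5 complement genes measured. Serping1, which encodes the inhibitor of C1, had few reads and was at 2.65 to 5.44 CPM and then 9.33 to 12.5 CPM (unadjusted p = 0.00390, edgeR adjusted p = 0.838). C1qc, a chain of the C1q recognition molecule, had overlapping pools (log2 FC 0.57 ± 0.38).

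Among class I genes, which present peptides made inside the cell, RT1-A1 was at 41.1 to 67.0 CPM at 6 months and at 96.8 to 122 CPM at 12 months without overlap, but missed the threshold (log2 FC 0.93 ± 0.22, edgeR adjusted p = 0.231). RT1-A2 had overlapping pools and a log2 FC of 0.42 ± 0.29. Of 8 interferon-response genes measured none was DE and 1, Parp14, passed 0.05 unadjusted in edgeR (log2 FC 0.80 ± 0.31), although all 8 values were above 0 (median 0.42) and the pools of 3, among them Ifi27, did not overlap. The share of all genes with an unadjusted p under 0.05 was 2.39% upward and 2.17% downward. Only genes with a symbol can be members, and of these 1670 genes 54.4% had a value above 0. Upward, 101 of the 1670 had an unadjusted p under 0.05 and 124 had pools without overlap.

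Markers of immune cells were followed because class II genes are known from these cells. None of 11 microglia and macrophage markers was DE. Values above 0 were found for 10 of the 11 (median log2 FC 0.34), beside 54.4% of all genes with a symbol. Fcer1g (an Fc receptor subunit) and Itgam (an integrin chain) had an unadjusted p under 0.05. Fcer1g was at 5.78 to 8.28 CPM and then 14.3 to 24.4 CPM, without overlap (edgeR adjusted p = 0.926), and Itgam was at 2.92 to 10.9 and then 8.14 to 15.4 CPM, with overlap. Tyrobp, the adaptor of several microglial receptors, was at 1.86 to 8.28 and then 6.10 to 11.3 CPM. The summed level of the 11 markers was 137 to 174 CPM in 6 m AL and 146 to 221 CPM in 12 m AL, with overlapping ranges, and that of 2 lymphocyte and dendritic cell markers was 63.9 to 99.3 CPM and 50.8 to 77.6 CPM. The part of cell number in the class II result was not tested.

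Gfap, the intermediate filament of astrocytes, was at 422, 384 and 347 CPM in pools 1 to 3 and at 620, 578 and 701 CPM in pools 4 to 6. The ages did not overlap, and the change missed the threshold (log2 FC 0.72 ± 0.18, edgeR adjusted p = 0.351). Vim, another filament of reactive astrocytes and of vessels, was at 43.7 to 48.0 and then 61.0 to 77.1 CPM (unadjusted p = 0.0166). The log2 FC of the other 4 astrocyte markers were on both sides of 0. Among them Fgfr3 (−0.39 ± 0.22) and Gjb6 (−0.34 ± 0.21) were lower in every 12 m AL pool than in any 6 m AL pool. As many of the markers thus fell as rose without overlap. The sum of all 6 was 1877 to 2151 CPM and then 2302 to 2493 CPM.

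**Figure D3:**
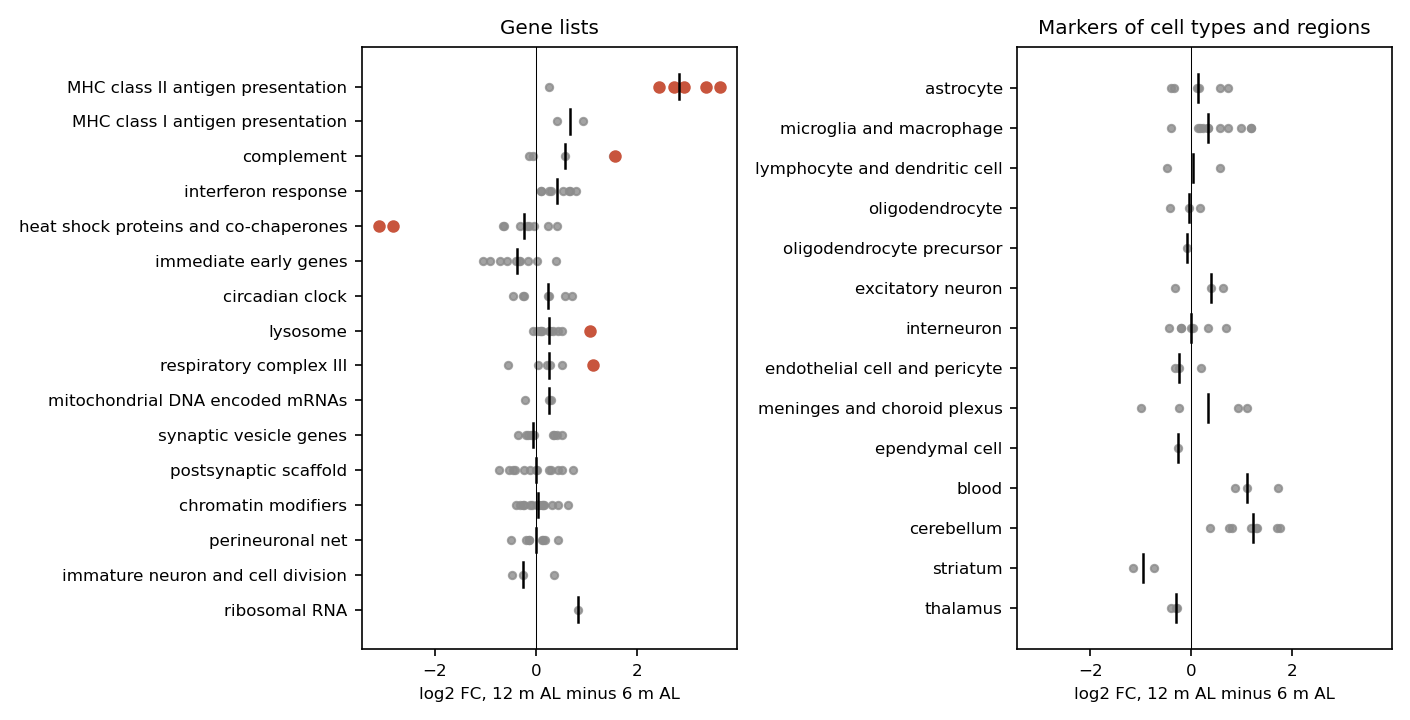
Log2 FC (12 m AL minus 6 m AL) of every measured member of the gene lists (left) and of the marker lists of cell types and brain regions (right), with DE genes in red, other genes in grey and the median of each list as a black bar. The red points are the 5 class II genes, C3, the pair of Hspa1b copies, Npc2 and Uqcrc1, and no marker of a cell type or region was DE.

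Uqcrc1 encodes a core subunit of respiratory complex III, which passes electrons from ubiquinol to cytochrome c. It was at 61.8, 57.5 and 51.7 CPM at 6 months and at 129, 116 and 125 CPM at 12 months, with little spread at either age (log2 FC 1.12 ± 0.20, 2.18-fold, edgeR adjusted p = 0.0120). The call was lost without any one of pools 2, 4 and 5, where the log2 FC stayed between 1.09 and 1.16 and the adjusted p (edgeR) reached 0.101. No pool of the other 11 groups reached the 12 m AL range, since all 33 lay between 58.0 and 90.8 CPM. The other 5 complex III genes measured were not DE, and the nearest to it in log2 FC, one of a pair of Uqcrb identifiers, had overlapping pools (0.53 ± 0.30). The protein-coding gene ENSRNOG00000047746, listed as uncharacterized protein LOC310926, was likewise apart from the rest of the series. It was at 6253, 6966 and 5256 CPM and then 14562, 18153 and 13302 CPM (log2 FC 1.32 ± 0.19, edgeR adjusted p = 0.00115), and at 1470 to 6120 CPM in the other 33 libraries.

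Npc2, a lysosomal protein that moves cholesterol out of the lysosome, showed the reverse arrangement, in that 6 m AL was the group that stood apart. It was at 43.8, 39.5 and 44.3 CPM in 6 m AL and at 83.1, 85.4 and 97.5 CPM in 12 m AL (log2 FC 1.06 ± 0.21, 2.09-fold, edgeR adjusted p = 0.0401). The call was held only without pool 1, and was lost without any one of pools 2 to 6 or without Rn28s and the mitochondrial tRNA loci in the fit, with a log2 FC of 1.004 to 1.12 whichever pool was left out. The lowest of the 33 libraries of other groups was at 60.4 CPM, above all 6 m AL pools, and 6 m CR (77.6 to 87.9 CPM) overlapped 12 m AL. Of 11 lysosomal genes measured Npc2 was the only one DE, and 10 of the 11 values were above 0, with a median log2 FC of 0.26. Of all genes with a symbol 54.4% had a value above 0.

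Ptgds, which encodes prostaglandin D synthase, made mainly by meninges, choroid plexus and oligodendrocytes, was at 181, 207 and 133 CPM and then 289, 279 and 416 CPM. It came nearest to the threshold of the genes with a name that missed it (log2 FC 0.93 ± 0.21, edgeR adjusted p = 0.174). Pbx3, a homeodomain transcription factor (log2 FC 0.99 ± 0.24), and Nop10, a subunit of the H/ACA ribonucleoproteins (1.23 ± 0.32), were also higher in every 12 m AL pool, with edgeR adjusted p of 0.292 and 0.403.

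Hspa1b encodes an inducible HSP70 chaperone, made within minutes of heat or other protein stress. The annotation lists it under a pair of identifiers with near-equal counts, so they are not independent, and multiply mapping reads were left out. The copy ENSRNOG00000050647 was at 11.1, 68.0 and 33.7 CPM at 6 months and at 4.66, 0 and 5.0 CPM at 12 months. No read was counted in pool 5, which at its depth allows up to 6.1 CPM, and counting error alone is covered by that limit. The copy ENSRNOG00000045654 was at 10.4, 70.4 and 28.1 CPM and then 4.11, 10.2 and 4.58 CPM, so that pool 5 nearly met pool 1. The log2 FC was −3.11 ± 0.54 and −2.82 ± 0.54 (edgeR adjusted p = 0.0102 and 0.0303). The 6 m AL pools differed widely among themselves, and neither DESeq2 nor limma-voom made these calls. Without pool 2 the log2 FC was −2.40 and −1.89 (edgeR adjusted p = 0.0347 and 0.246), and without pool 4 the second copy was at −2.58 (0.0673).

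None of the other 8 heat shock and co-chaperone genes measured was DE. Hsph1, an HSP110 family chaperone, was at 286, 377 and 514 CPM and then 274, 273 and 218 CPM, without overlap (log2 FC −0.62 ± 0.21, edgeR adjusted p = 0.948). Dnajb5, an HSP40 co-chaperone, was at 41.2 to 60.9 and then 16.3 to 40.3 CPM (unadjusted p = 0.0247). The log2 FC was −0.30 for Ahsa1, −0.17 for Stip1, −0.14 for Hspa4l, −0.03 for Dnajb4, 0.25 for Hspe1 and 0.42 for Cryab, all with overlapping pools. The median over the 10 identifiers was −0.23.

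Arc and the Egr genes are transcribed within minutes of neuronal activity. Arc was at 311, 249 and 203 CPM at 6 months and at 195, 102 and 65.4 CPM at 12 months, so that pool 4 came close to pool 3 (log2 FC −1.04 ± 0.28, edgeR adjusted p = 0.463). Egr3 (log2 FC −0.92 ± 0.38) and Egr1 (−0.56 ± 0.25) had overlapping pools, with the lowest levels of Egr1 in pools 5 and 6. Of 10 immediate early genes measured none was DE and 3 had an unadjusted p under 0.05, all downward (70 of the 1670 genes with a symbol). Pdp1, a phosphatase that activates pyruvate dehydrogenase, was at 174 to 231 and then 117 to 132 CPM (log2 FC −0.66 ± 0.20, edgeR adjusted p = 0.752), and Klhl29, a kelch protein, at 51.4 to 78.3 and then 30.8 to 46.8 CPM (−0.73 ± 0.25, edgeR adjusted p = 0.948).

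The other DE genes that fell were short non-coding loci. The mitochondrial tRNA locus ENSRNOG00000032609 was at 63.2, 90.5 and 57.8 CPM and then 16.7, 16.3 and 21.7 CPM (log2 FC −1.92 ± 0.27, edgeR adjusted p = 0.000696), and ENSRNOG00000030339 at 131, 218 and 191 CPM and then 78.4, 26.4 and 44.6 CPM (−1.73 ± 0.27, edgeR adjusted p = 0.00327). The list of mitochondrial tRNA loci was drawn up after the values were seen. Of 10 measured, 4 were DE, all lower (0.0464% of all genes tested were DE and lower). In 6 all 12 m AL pools lay below the 6 m AL pools (5.33% of all genes tested). Values above 0 were found for 3, and the summed level overlapped, at 7915 to 14330 and then 7567 to 13310 CPM. The call of ENSRNOG00000030339 was lost without pool 5 (log2 FC −1.53, edgeR adjusted p = 0.138), and neither locus was DE with all 13 groups in one fit. The biotype of a locus is known only for genes the study listed as changed in some comparison of these same libraries. The 10 are therefore not all such loci, and the shares over all genes tested are no like background for them. None of 3 mitochondrial mRNAs measured was DE, and their median log2 FC was 0.27.

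The locus of rno-mir-1843 was at 33.8, 96.6 and 121 CPM in 6 m AL and at 18.9, 4.07 and 27.1 CPM in 12 m AL (log2 FC −2.09 ± 0.39, edgeR adjusted p = 0.0181). Without pool 3 the log2 FC was −1.72 (edgeR adjusted p = 0.0596), and DESeq2 and limma-voom did not call it. Here too 6 m AL was the group apart, since the 33 other libraries lay between 4.02 and 39.1 CPM and only 28 m AL overlapped it. RefSeq lists this locus under the symbol Scarna3, a small Cajal body RNA, and that of rno-mir-3068 under Snora58, a small nucleolar RNA of the H/ACA kind. The libraries were made from fragmented total RNA, so the reads overlap the locus and do not measure the mature miRNA. The mature sequences of both loci (RefSeq, GRCr8), printed with bases 2 to 8, the seed, in capitals, show that their 4 arms have 4 different seeds.
rno-miR-1843a-5p: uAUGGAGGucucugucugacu
rno-miR-1843a-3p: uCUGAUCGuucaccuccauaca
rno-miR-3068-5p: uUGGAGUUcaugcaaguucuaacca
rno-miR-3068-3p: gGUGAAUUgcaguacuccaaca

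The rno-mir-3068 locus was at 89.7, 155 and 126 CPM and then 78.4, 34.6 and 81.3 CPM, without overlap but far from the threshold (log2 FC −0.84 ± 0.25, edgeR adjusted p = 0.752). Mir664-2 was at 13.8 to 16.1 CPM in 6 m AL and at 6.31, 0 and 5.42 CPM in pools 4 to 6 (log2 FC −1.52 ± 0.45, edgeR adjusted p = 0.752). No read was counted in pool 5, which allows up to 6.1 CPM there. Of 47 loci of the miRNA biotype, listed after the values were seen and holding Rn28s, 28 had a log2 FC above 0 (median 0.43). In edgeR 20 had an unadjusted p under 0.05 upward and 7 downward (2.39% and 2.17% of all genes tested), and 2 were DE, both lower (0.0464%). The 12 m AL pools lay above the 6 m AL pools in 18 and below in 7 (4.35% and 5.33% of all genes tested).

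Markers of neighbouring regions varied between pools of the same age. Neurod1 and Zic2, known from cerebellar granule cells, were at 4.5, 50.3 and 6.10 CPM and at 6.15, 25.9 and 17.2 CPM in pools 1 to 3, and at 14.8, 32.5 and 135 CPM and at 8.23, 50.8 and 65.0 CPM in pools 4 to 6. The sum of 8 cerebellar markers was 156, 1055 and 172 CPM in 6 m AL and 143, 600 and 2225 CPM in 12 m AL, so that pools 2, 5 and 6 were high and pools 1, 3 and 4 low. Pool 2 was also the highest 6 m AL pool for 4 of the 5 class II genes, all but RT1-Da, and pool 4 the lowest 12 m AL pool for 4 of them, all but RT1-Db1. In all 5 genes pool 4, with the lowest cerebellar sum, was above pool 2. Genes known from striatal neurons were high in pool 1, with Pde10a at 225, 73.8 and 52.8 CPM and then 46.3, 59.0 and 55.8 CPM. Adcy5 (433, 184 and 105 CPM, then 112, 97.6 and 95.9 CPM) and Scn4b, picked after their values were seen, had the same high pool. The sum of 3 thalamic markers was 74.5, 133 and 364.5 CPM in 6 m AL and 122, 118 and 207 CPM in 12 m AL, highest in pool 3. The part of these regions in the AL comparison was not tested.

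All 3 genes measured of the blood list, which holds alpha globin genes and Alb, had an unadjusted p under 0.05 with the higher level at 12 months. Their pools overlapped, and the edgeR adjusted p was 0.836 or more. The alpha globin genes Hba-a2 and Hba2 had log2 FC of 1.11 ± 0.34 and 0.86 ± 0.33, and Alb, the liver's serum protein, 1.72 ± 0.75, and the sum of the 3 was 76.9 to 228 CPM at 6 months and 177 to 514 CPM at 12 months. Without pool 5 the pools of Hba-a2 did not overlap (log2 FC 1.40 ± 0.37). The 4 markers of meninges and choroid plexus were on both sides of 0. Beside Ptgds, Mgp was at 3.40 to 6.10 and then 6.10 to 15.8 CPM, resting on few reads (log2 FC 1.10 ± 0.46), while Aqp1, a water channel, and Dcn, a matrix proteoglycan, had log2 FC of −0.99 ± 0.60 and −0.25 ± 0.38 with overlapping pools. Without pool 5 the value of Aqp1 was −1.51. The part of blood and meninges in the AL comparison was not tested.

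Gene groups of neurons and glia showed no DE gene. Of 10 presynaptic genes measured none, and of 13 postsynaptic genes 2, GRIN3A (an NMDA receptor subunit, log2 FC −0.72 ± 0.29) and Shank1 (a scaffold, −0.52 ± 0.23), had an unadjusted p under 0.05, and 7 of the 13 values were above 0. Among 7 interneuron markers Reln, an extracellular matrix protein, was at 155 to 270 and then 189 to 515 CPM, highest in pool 6. Of 3 oligodendrocyte markers Cldn11, a claudin of the myelin sheath, had a log2 FC of −0.43 ± 0.19 without overlap, and the myelin genes Opalin (0.17 ± 0.22) and Mog (−0.05 ± 0.20) had overlapping pools. Of 8 genes of perineuronal nets and matrix, 4 had values above 0. Bcan, a proteoglycan of these nets, had a log2 FC of −0.49 ± 0.23 and Hapln4 (ENSRNOG00000049949), a link protein, of 0.44 ± 0.24, each without overlap. Another Hapln4 identifier, ENSRNOG00000050507, had a log2 FC of 0.19 ± 0.23 with overlapping pools. The 3 genes of immature neurons were Tubb2b, a tubulin (−0.47 ± 0.22, lowest in pool 5), Gap43 of growth cones (−0.25 ± 0.21) and Nnat (0.37 ± 0.20). In the circadian clock Per3 had a log2 FC of 0.58 ± 0.27 and Cry2 of −0.45 ± 0.21, out of 7 genes measured. The edgeR adjusted p of each gene named here was 0.9995.

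Leaving out pool 5, 6 genes (0.0348% of those tested) were DE, all of them among the 17, namely the 5 class II genes and the mitochondrial tRNA locus ENSRNOG00000032609. No gene became DE that was not DE with pool 5. All 17 kept their direction and their separation between ages, and their log2 FC lay close to those with pool 5, the widest move being that of RT1-Da. C3 went from 1.57 to 1.63 ± 0.29 (edgeR adjusted p = 0.101), Uqcrc1 from 1.12 to 1.16 ± 0.20 (0.101), and Npc2 from 1.06 to 1.08 ± 0.22 (0.236). For Hspa1b the adjusted p rose to 0.282 and 0.334, and for rno-mir-1843 to 0.473. For the gene of LOC310926 the log2 FC without pool 5 was 1.18 ± 0.20 (edgeR adjusted p = 0.101). With pool 5 left out the older group has only 2 pools.

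**Figure D4:**
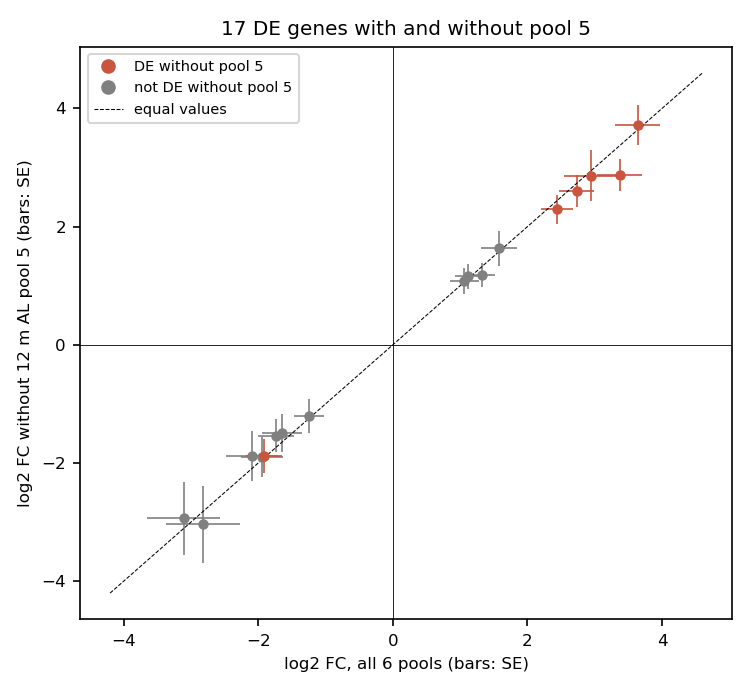
Log2 FC of the 17 DE genes with all 6 pools (horizontal axis) and without 12 m AL pool 5 (vertical axis), with SE bars, genes that stayed DE in red, the others in grey and equal values on the dashed line. All points lie near the line, and the 5 class II genes are the red points at the top right.

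The same interval was compared under CR, with 3 pools of 6 m CR and 3 of 12 m CR that share no library with the AL groups. In CR 5 genes (0.029%) were DE, and none of them was among the 17. Of the 17, 14 had the same sign in both diets, some of them with a CR value close to 0. The share over all genes tested was not counted. RT1-Db1 was at a mean of 3.43 CPM in 6 m CR and 9.54 CPM in 12 m CR (log2 FC 1.52), Cd74 at 13 and 22.1 CPM (0.82), and RT1-Da at 6.07 and 16.1 CPM (1.49), the last without overlap between the CR ages. C3 was at 22.1 and 43.0 CPM (log2 FC 0.97), also without overlap. Uqcrc1 (0.17), Npc2 (0.04), rno-mir-1843 (−0.07) and the gene of LOC310926 (0.0019) were nearly level between the CR ages, and 3 of the 4 mitochondrial tRNA loci had the opposite sign.

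Tested as an interaction of age and diet over the 12 libraries, 0 genes (0%) passed an adjusted p under 0.05 in edgeR, 1054 had an unadjusted p under 0.05, and DESeq2 called 12. Of the 17 genes, 16 had an unadjusted interaction p under 0.05, with adjusted p from 0.185 to 0.810, but they were chosen for their change in the same AL libraries, which fixes the direction of such a difference in part. The interaction of Cd74 was −1.64 ± 0.38 on the log2 scale (edgeR adjusted p = 0.402, DESeq2 adjusted p = 0.0314), that of Npc2 −1.04 (0.402 and 0.0322) and that of Uqcrc1 −0.97 (0.430 and 0.0487). C3 had the smallest, −0.63 (edgeR adjusted p = 0.843). Without the filter on low counts edgeR called 132 genes, 15 of the 17 among them and all but Uqcrc1 and C3. A difference between the diets in the change from 6 to 12 months was therefore called for 0 of the 17 genes by edgeR with the filter, for 15 without it and for 6 by DESeq2, which gave RT1-Bb no adjusted p.

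**Figure D5:**
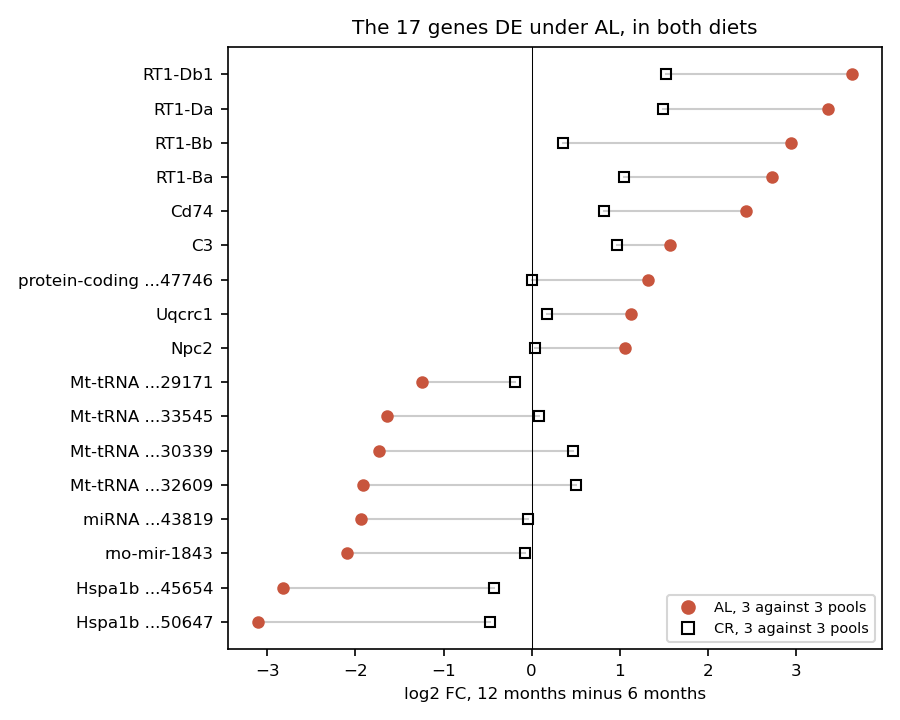
Log2 FC (12 months minus 6 months) of the 17 genes under AL (filled red circles) and under CR (open squares), 3 pools against 3 in each diet. The class II genes and C3 lie right of 0 in both diets with the CR value nearer to 0, and the other genes lie nearer to 0 than under AL or on the other side of it.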

How the data were processed

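Per the labels, total RNA of male BN rat cerebral cortex was pooled 2 by 2, depleted of ribosomal RNA and sequenced on a SOLiD 5500xl instrument. The authors aligned forward reads with Bowtie, without multiply mapping reads, to rn5 (Ensembl release 71) and counted them per gene with HTSeq. The deposited values are raw counts for 26123 Ensembl genes, followed by 5 lines of reads on no gene, which were left out here (81.8% to 84% of the aligned reads of the 6 AL libraries were on no gene).

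Genes with at least 1 CPM in at least 3 of 39 libraries were tested (17230). The 6 AL libraries were fitted with edgeR 4.0.16 in R 4.3.3 (TMM, glmQLFit, glmQLFTest, Benjamini-Hochberg), as was the age by diet interaction over 12 libraries. SE is the log2 FC divided by the square root of F. Scripts were tested on simulated data. Alternatives used DESeq2 1.42.0, limma 3.58.1 and other filters, scalings and samples.

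Symbols and biotypes came from the study's supplementary tables, for 1670 genes, all listed there as changed in some comparison of these libraries. Of these 10.2% had an unadjusted p under 0.05 here, against 4.56% of all genes. Gene lists held 421 symbols, of which 168 had an identifier. Members and lists were chosen with earlier results of these data known. Named were all DE genes with a symbol, at most 2 DE loci without one per direction, the 6 genes per direction with the smallest unadjusted p among genes with a symbol and separate pools that were not DE, and up to 4 members of each list by p (all members for class II, heat shock and ribosomal RNA). Adcy5, Scn4b, ribosomal protein genes and the lists of mitochondrial tRNA loci and of loci with the biotype miRNA were added after their values were seen. Gene positions in rn5 were not used here. The study's own fold changes and p-values were not used. Replicates are pools, and p-values measure the spread between pools.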

Additional observations from a re-analysis of the deposited data

How the results depend on the processing

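Under the alternatives tried, none of the 17 DE genes changed direction. With all 6 pools, 19 genes were DE by edgeR's exact test, 24 by DESeq2, 14 by limma-voom with sample quality weights, 17 with RLE factors or with TMM over all 39 libraries, and 12 with 1 CPM of every line of the file. The number was 75 without a filter on low counts, 9 with at least 10 counts in each library and 41 with all 13 groups in one fit. The 75 held all 17 genes and the 41 held 13 of them, and the cause of the larger numbers was not tested. The number of DE genes ranged from 6 to 31 when a pool was left out, the lowest without 12 m AL pool 5, with 30 and 31 without 6 m AL pools 1 and 2. RT1-Db1, RT1-Ba, RT1-Da and Cd74 stayed DE in each of 17 alternatives. RT1-Bb stayed DE in 15 of 16, and in the remaining setting DESeq2 gave it no adjusted p. Leaving out 20 abundant loci of the miRNA biotype with Rn28s and mitochondrial tRNA loci, an alternative chosen after seeing the data, left 13 DE genes. Without pool 5 the 6 DE genes became 17 by the exact test, 18 by DESeq2, 69 without a filter, 6 by limma-voom and 4 with at least 10 counts. The interaction had 12 genes by DESeq2, 132 without a filter (15 of the 17) and 0 without pool 5. Dnajb4 ranged from −0.23 to 0.23 and Hspa4l from −0.29 to 0.0051 when a pool was left out. No paired analysis was possible because the pools of the groups carry different numbers. At 12 months, genes of few reads are limited by the depth of pool 5.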

Other observations

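Ribosomal protein genes, a list drawn up after the values were seen and so without a test, lay mostly above 0. Of 66 measured with a symbol, 59 had a log2 FC above 0 (median 0.36, beside 0.04 over all genes with a symbol and −0.02 over all genes tested). None was DE, and 14 had an unadjusted p under 0.05 upward and 1 downward, beside 101 and 70 of the 1670 genes with a symbol. In 18 the 12 m AL pools lay above all 6 m AL pools, as in 124 of the 1670, of which 54.4% had a log2 FC above 0. The smallest p-values were those of Rpl37 (log2 FC 1.29 ± 0.40), Rpl30 (0.80 ± 0.25), Rpl37a (1.06 ± 0.33) and Rps12 (0.86 ± 0.27), with edgeR adjusted p of 0.838 to 0.879. The summed level of the 66 was 3545, 3367 and 3656 CPM in pools 1 to 3 and 3986, 3518 and 3951 CPM in pools 4 to 6, so that the sums overlapped between the ages.

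Loci with the biotype miRNA took 94190 to 116400 CPM in 6 m AL and 134100 to 176700 CPM in 12 m AL. Rn28s is annotated with this biotype, and ENSRNOG00000048154 has nearly the same level (means of 13705 and 24478 CPM, against 13712 and 24476 CPM for Rn28s), so the sum counts near-identical loci more than once and is no measure of miRNA.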
